A study of Mus musculus and Homo sapiens with 7 samples.

Results

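The account concerns the 2 libraries of living B16-F10 cells grown in glucose, out of 7 samples in the series, and asks which gene knockouts were rare among them. B16-F10 is a pigmented mouse melanoma line. The cells stably carried Cas9, which had been delivered by lentivirus with a fluorescent marker and sorted for, and each received a guide RNA that directs Cas9 to cut a chosen gene. Puromycin (2 µg/mL) was applied during 7 days, after which the cells were kept for 48 h in complete glucose medium. The labels call these libraries control, and the protocol describes the cells as alive at harvest; guides were amplified from 5 µg of their genomic DNA. The other samples of the series, 3 libraries of dead cells from galactose medium and 2 UV-RIP libraries of human HEK 293T cells, were not used here. Both libraries were chosen by their label, and every guide in them was kept: 9271 guides against 929 gene symbols, 375 guides without a genomic target (non-targeting), and 375 guides that cut where no gene is hit (safe-targeting). Most genes had 10 guides, and the 926 genes with at least 5 guides are described below. Of the 3 genes with fewer guides, Gm14474 and Gm6026 had 1 guide each, at 0 in both libraries, and Stfa2, a cystatin, had 4 guides at a mean log2 level of 5.68 and 5.90.

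In a pooled screen each cell carries 1 guide as a tag in its genome, so the reads of a guide count the descendants of the cells that took it up. When Cas9 destroys a gene that growth depends on, those cells divide less and the guide becomes rare, which is called dropout. Classic dropout genes serve transcription, splicing, ribosome assembly, DNA replication and chromosome segregation, and in melanoma also the factors that hold the melanocyte state. The pair of control sets shows how guides behave without the loss of a gene, with a cut and without one. No library of the starting pool was used, so the rarity of a guide through poor growth and its rarity in the pool before growth cannot be told apart in any value below. Guide counts of genomic DNA hold no expression, so the identity of the cell line was not checked against marker genes.

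The 2 libraries, called a and b by their place in the deposited cell (which carries no replicate number), held 6801049 and 8492138 reads, with a median of 149 and 189 reads per guide. A single read was worth 1.57 normalised counts in library a and 1.25 in library b. A guide at 0 may therefore have up to 3 reads by counting error alone, that is 4.71 and 3.74 normalised counts. No molecular identifiers are named in the labels, so such limits cover counting error only. The binomial intervals below treat the guides of a class as independent and cover no spread between libraries or cultures. Abundance was uneven: the 1002 most abundant guides of 10021 took 53.4% of the reads in library a and 53.2% in library b. The labels do not state whether the cultures were separate, so an SD between libraries may be technical. With both libraries from 1 condition there was no contrast between conditions, and no test of a gene was made; genes are described by fixed sizes.

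A guide's level is given as log2(normalised count + 1), and a gene's level as the mean over its guides. Gene-targeting guides had a mean level of 6.55 and 6.52 in libraries a and b, against 6.84 and 6.93 for non-targeting guides and 6.32 and 6.33 for safe-targeting guides. The difference of gene-targeting minus non-targeting guides was −0.35 ± 0.087, and that of gene-targeting minus safe-targeting guides 0.21 ± 0.030 (SD, n = 2 libraries). The control sets differed from each other by more than that, safe-targeting minus non-targeting being −0.56 ± 0.056. These SDs compare libraries of the same guides and do not cover the spread over guides. Over guides the SD was 4.47 for gene-targeting, 4.46 for non-targeting and 4.71 for safe-targeting guides. Whether the differences exceed what the choice of guides gives was not tested. By this mean, which includes guides at 0, guides against genes lay between both kinds of control in each library, but not by the median in library a, 7.87 for gene-targeting guides against 8.12 for non-targeting and 7.99 for safe-targeting guides.

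The classes also differed in guides without reads. Of the gene-targeting guides, 2260 (24.4%, 95% exact binomial interval 23.5 to 25.3) were at 0 in both libraries, against 82 of the non-targeting guides (21.9%, 17.8 to 26.4) and 108 of the safe-targeting guides (28.8%, 24.3 to 33.7). The share for genes thus lay between those of the control sets, and its interval overlapped both. Among guides detected in at least 1 library the mean level was 8.64 in the gene-targeting class, 8.82 in the non-targeting class and 8.88 in the safe-targeting class. The gene-targeting class was thus the lowest once guides at 0 were left out, as it was in each library. The SD over detected guides was 2.87, 2.89 and 2.89 in that order. Few guides lay in between: 229 gene-targeting guides (2.47%) had 1 to 9 reads over both libraries, as did 7 guides (1.87%) of each control set.

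**Figure D1:**
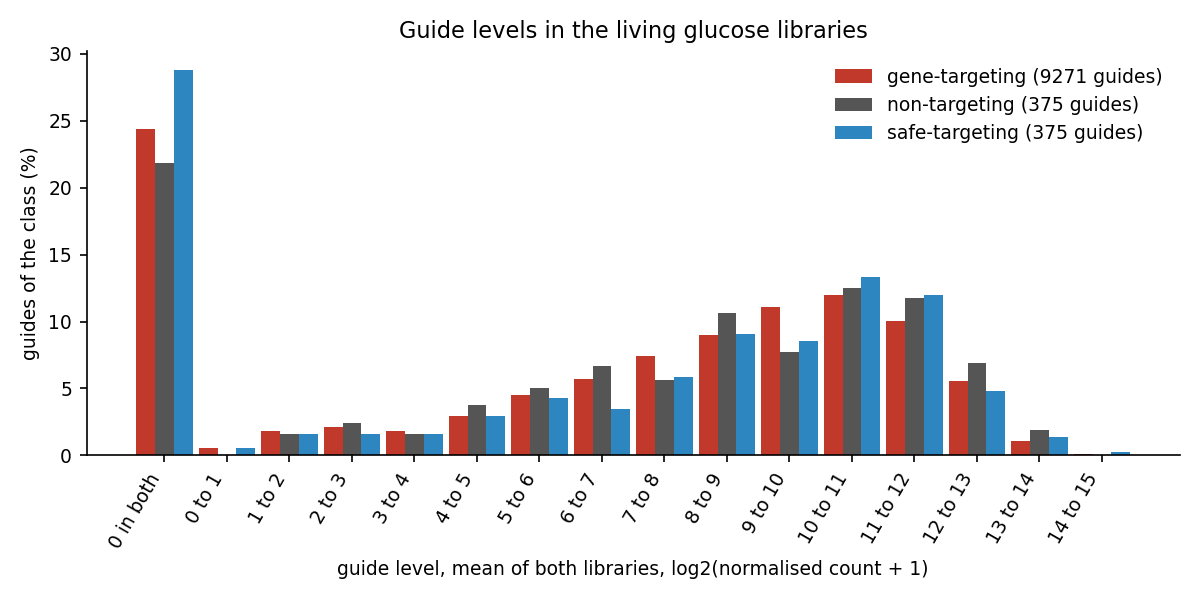
Share of guides (%) by level, log2(normalised count + 1), averaged over both living glucose libraries, for gene-targeting (red), non-targeting (grey) and safe-targeting (blue) guides. The leftmost group holds guides at 0 in both libraries, 24.4%, 21.9% and 28.8% of the classes, and in all 3 classes most detected guides lie well above the few at levels under 4.

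Guides of 1 gene shared little of their level. Gene identity accounted for 3.81% of the variance of guide levels in library a and 3.74% in library b (1-way variance components over 9271 guides, a description). For detected guides alone the shares were 1.63% and 1.38%, and for being at 0 or not 4.85%. Within a gene with at least 5 detected guides, the SD of the detected guides had a median of 2.72 log2 units. The place of a guide in its gene's numbering moved the share at 0 between 22.4% and 27.0%. Most of the spread in these libraries therefore stood between guides of the same gene.

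The libraries ranked genes alike. Gene levels in a and b had a Pearson correlation of 0.983 across 926 genes, which share the same guide pool and are not replicates. The size of the difference between libraries had a median of 0.15 log2 units and exceeded 0.5 for 101 genes, the greatest being 1.16 for Ccdc12. Libraries differed most in rare guides. For guides of 10 to 50 normalised counts seen in both libraries the SD of the difference was 1.82, where counting alone gives 0.56. For guides over 1000 it was 0.19, where counting gives 0.05. There were 357 guides at 0 in 1 library only, and 159 of these had at least 10 reads in the other, up to 76 reads.

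Gene levels had a median of 6.67 and ran from 0 to 10.56. A gene is called low where its level was at least 2 log2 units below the mean of the non-targeting guides in each library, and high where it was at least 2 above. By this rule 113 genes (12.2% of 926) were low and 45 (4.86%) were high. With safe-targeting guides as control 74 were low and 101 high, so the order of these counts turned around. With guides at 0 included, single non-targeting guides had an SD of 4.46 log2 units. A gene whose loss changes nothing can therefore pass either rule through the spread of its guides. How many such genes are among those called is not given here. Levels lay below the non-targeting mean in both libraries for 487 genes and above it for 393. The genes nearest the threshold inside were Ift80 (4.81 in library a and 4.92 in library b), Napepld (4.44 and 4.92) and Trp53inp2 (4.80 and 4.91). Just outside were Gm6086 (4.87 and 4.63), Stpg1 (4.87 and 4.84) and Cep97 (4.65 and 4.96). These 6 genes were separated by less than the difference between libraries of Napepld.

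**Figure D2:**
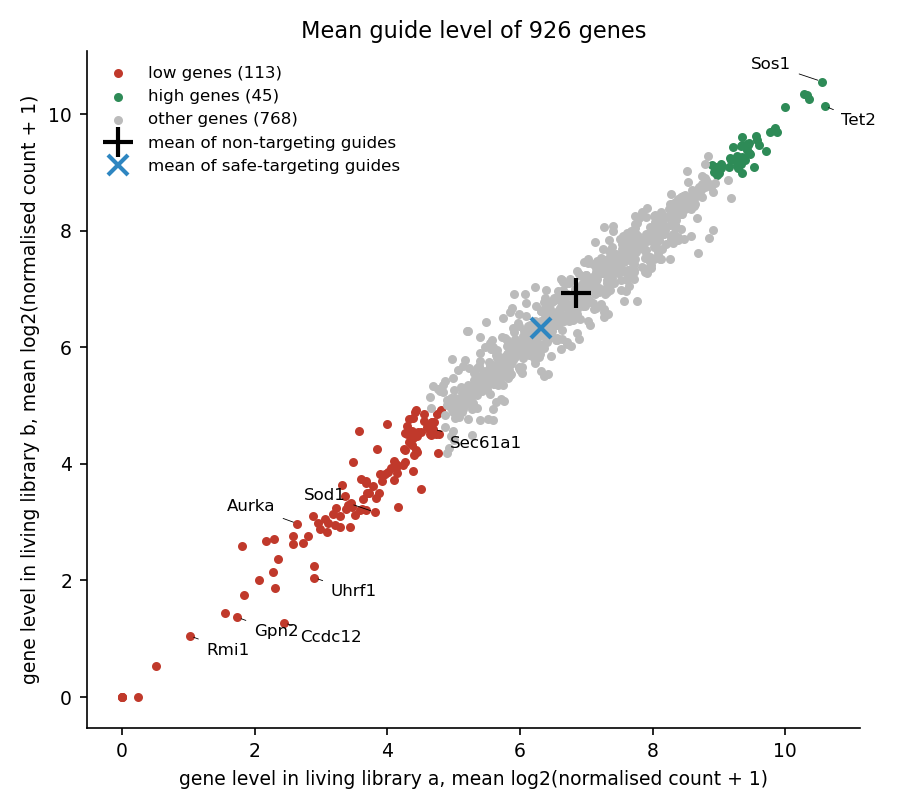
Level of each of 926 genes, the mean log2(normalised count + 1) over its guides, in living library a (horizontal) and library b (vertical). Low genes (113) are red, high genes (45) green and the others grey; the cross marks the mean of non-targeting guides, at 6.84 and 6.93, and the blue mark that of safe-targeting guides, at 6.32 and 6.33.

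Low levels had 2 components, guides at 0 and rare guides. Low genes had a median of 5 guides at 0 and the high genes a median of 0, while genes in neither class had a median of 2. Over 50% of the guides were at 0 in 36 genes (3.89% of 926), and all 36 were low. Guides at 0 enter the gene level, so these counts follow in large part from the rule itself. The detected guides of low genes had a median level of 7.34, against 8.82 for the mean of detected non-targeting guides. In 28 low genes the detected guides stood above that mean, and in 82 below it; in 3 none was detected. With all guides at 0 left out of genes and controls alike, 47 genes were low, 33 of them among the 113. Against safe-targeting guides 74 of the 113 remained low. To describe rare guides apart from absent ones, a second rule took genes with at least 5 detected guides, whose detected guides averaged at least 2 log2 units below those of the non-targeting set in each library. It held for 39 of 889 genes (4.39%), of which 25 were also low by the first rule. Across the 919 genes with 10 guides, 81 had none at 0, 254 had 2, 51 had 5 and 3 had all 10. The share of guides at 0 and the level of the detected guides were nearly unrelated over 889 genes (Spearman 0.02, a description across genes, which share libraries). The minimum of 5 detected guides leaves out all 36 genes with over 50% of guides at 0, so the value does not cover them.

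**Figure D3:**
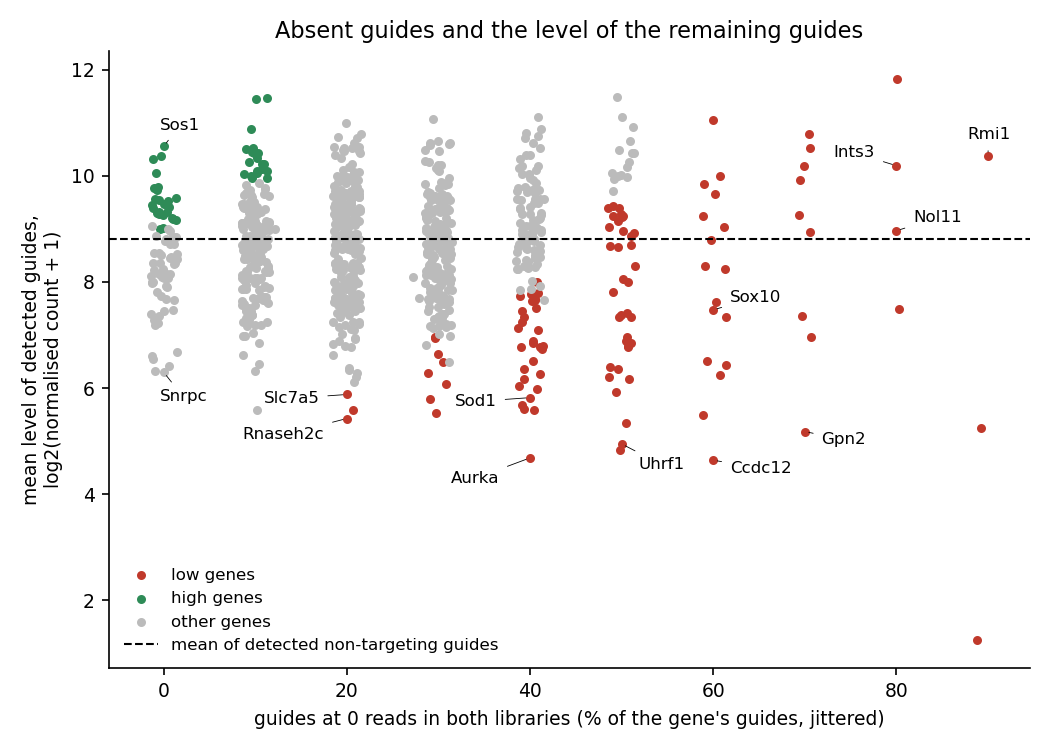
Share of a gene's guides at 0 in both libraries (horizontal, %, with a small random shift for unnamed genes) against the mean level of its detected guides (vertical, log2(normalised count + 1)). The dashed line is the mean of detected non-targeting guides, 8.82. Aurka, Uhrf1 and Rnaseh2c lie far below it, whereas Rmi1 and Ints3 lie above it and Nol11 close to it.

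The lowest levels belonged to genes with 8 or more guides at 0. Gm14483, Mfap1b and Sprr2a1 had all 10 guides at 0 in both libraries, and Gm3417 had 3 reads of 1 guide in library a and 0 in library b. Mfap1b is a near-identical copy of Mfap1a, and Sprr2a1 belongs to a cluster of closely alike skin barrier genes. How the counting treated guides that fit several copies is not given in the sources used here, so these values are uncertain. Mef2b, a muscle and lymphocyte transcription factor, had 1 detected guide and a level of 0.52 and 0.53 in libraries a and b. Gm13306 had 2 detected guides and a level of 1.56 and 1.44.

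The lowest genes also included Gpn2, Nol11, Ints3 and Rmi1. Gpn2, a GTPase that helps to assemble RNA polymerase II, had a level of 1.74 in library a and 1.37 in library b, with 7 of 10 guides at 0. Its best guide had 282 and 408 normalised counts, the next 29.8 and 31.2, and the third 18.8 and 0. No Gpn2 guide reached 500 normalised counts, in contrast to Nol11, a nucleolar factor of ribosomal RNA synthesis. Nol11 had a level of 1.84 and 1.74 with 8 guides at 0, but 1 of its guides stood at 4225 and 4235 normalised counts. Ints3, a subunit of the Integrator complex that processes small nuclear RNAs, had 2 guides left, at 3091 and 2520 and at 515 and 466 normalised counts. Rmi1, a partner of the Bloom helicase, had a single detected guide with 1205 and 1457 normalised counts. Rmi1 and Ints3 were thus low only through guides at 0, as their detected guides averaged 10.37 and 10.19, above the 8.82 of detected non-targeting guides. Those of Nol11 averaged 8.97, close to 8.82, and its other detected guide had 81.6 and 41.2 normalised counts.

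Ccdc12, a component of the spliceosome, stood at 2.44 in library a and 1.27 in library b. Besides 1 guide at 814 and 805 normalised counts it had 3 guides between 18.8 and 45.5 in library a, of which 2 were at 0 in library b. Adat2, part of the enzyme that edits tRNA anticodons, stood at 2.31 and 1.87 with 7 guides at 0. The guide table lists the catalytic Integrator subunit Ints11 under its older name Cpsf3l, which stood at 2.29 and 2.71 with 6 guides at 0. The difference between libraries for Ccdc12 lay in its rare guides, since its abundant guide had nearly the same value in both.

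Among genes whose detected guides were rare, Aurka came first of 889. Aurka is the Aurora A kinase, which builds the mitotic spindle. Its 6 detected guides averaged 4.68, against 8.82 for detected non-targeting guides. In library a the Aurka guides had 624, 466, 75.3, 3.14, 0 and 0 normalised counts, and in library b the same guides had 618, 600, 28.7, 0, 22.5 and 2.50. A further 4 were at 0 in both. Aurka thus had 2 guides above the median gene-targeting guide, at 232 and 233 normalised counts, and 8 below it.

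Uhrf1, which guides maintenance of DNA methylation onto newly made DNA, had a detected level of 4.95 and a gene level of 2.90 in library a and 2.05 in library b. Its guides had 494, 124, 32.9, 15.7 and 14.1 normalised counts in library a, and 563, 111, 0, 22.5 and 0 in library b. Rpp25l, a paralogue of a subunit of ribonucleases P and MRP, had a detected level of 4.84 with 5 guides at 0. Nkap, a nuclear regulator of transcription and splicing, stood at 5.34 with 5 guides at 0. Rnaseh2c, a subunit of the RNase H2 that removes ribonucleotides from DNA, stood at 5.43 with 8 of 10 guides detected. Tbc1d12, a protein with a Rab GTPase-activating domain, stood at 5.52 with 7 detected. Rnaseh2c and Tbc1d12 had gene levels of 4.34 and 3.87 with 2 and 3 guides at 0; the call of Rnaseh2c was lost against safe-targeting guides.

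**Figure D4:**
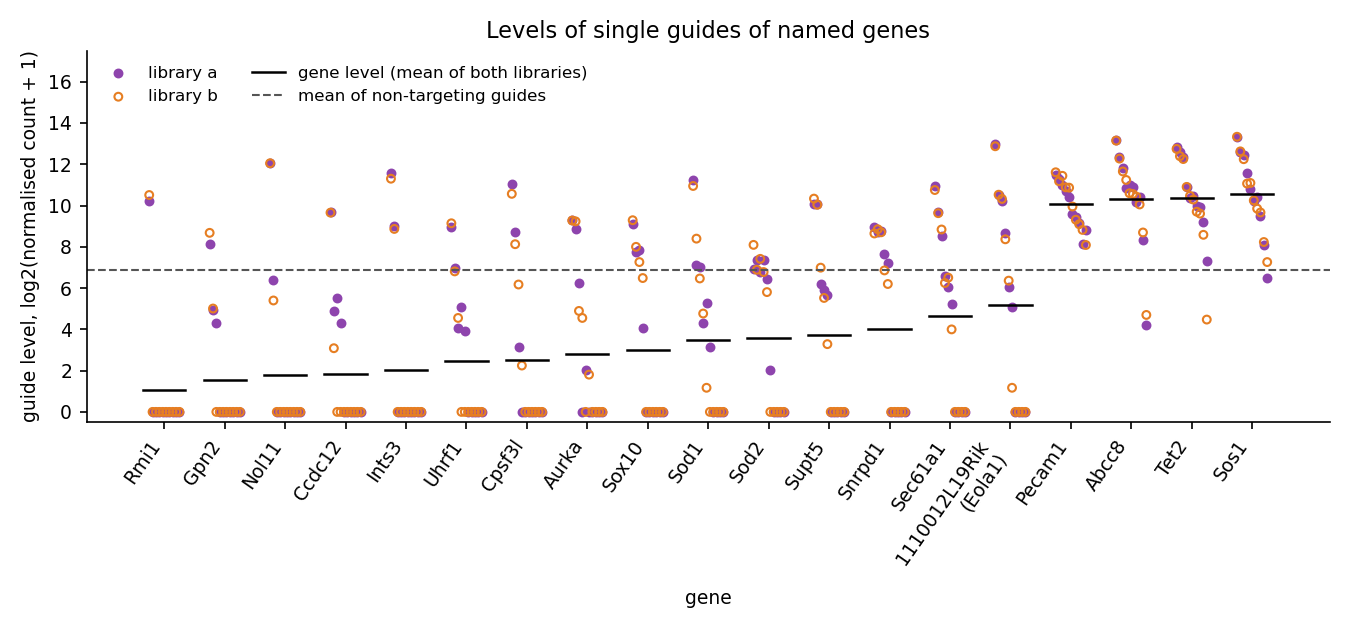
Levels of single guides, log2(normalised count + 1), of 19 genes in living library a (filled) and library b (open), with the gene level as a bar and the mean of non-targeting guides as a dashed line. The low genes have several guides at 0 each, while all 10 guides of Pecam1, Abcc8, Tet2 and Sos1 on the right were detected.

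The melanocyte and melanoma list had 1 gene in this library, Sox10, the transcription factor that specifies melanocytes and sustains them. Sox10 was low, at 2.87 and 3.10, with 6 guides at 0 and the others at 548, 231, 212 and 15.7 normalised counts in library a, against 624, 152, 255 and 88.6 in library b. It was the lowest of 9 Sox genes and the 1 Sox gene called low (11.1%, against 12.2% of all genes). The next, Sox12, stood at 4.90 and 4.19, and its detected guides at 6.49. Sox13 stood at 5.23 and 5.28 and Sox15 at 5.31 and 5.56. Sox9, which shares its protein group with Sox10, stood at 7.66 and 7.59, and Sox14 was the highest at 8.11 and 8.01. The gap from Sox10 to Sox12 exceeded the difference between libraries of each gene. It was smaller than the spread of the Sox10 guides, whose levels over both libraries ran from 0 to 9.19. With guides at 0 left out, Sox10 was no longer called.

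Lists of core cellular genes had 25 members in the library, since the lists of ribosomal and proteasome genes had none. Of these 25, 8 were low (32.0%, against 12.2% of all 926 genes) and 0 were high. Their median level was 5.15, against 6.67 over all genes, and 30.4% of their 260 guides were at 0, against 24.4%. With a pseudocount of 10, or with libraries scaled to equal totals, 3 of the 25 were low (12%, against 6.80% of all genes), the calls of Snrnp70, Snrpd1, Srpk1, Snap23 and Sec61a1 being lost. Against safe-targeting guides 6 were low (24.0%, against 7.99%), and with guides at 0 left out 4 were (16%, against 5.09% of the 923 genes with a detected guide). These 4 were Cpsf3l, Aurka, Gins3 and Snrpc, of which only Cpsf3l and Aurka were among the 8. By the second rule 3 of 24 had rare detected guides, against 4.39% of all genes.

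For transcription and RNA processing 4 of 13 genes were low (30.8%, against 12.2% of all genes). Besides Cpsf3l they were Supt5, the elongation factor subunit that travels with RNA polymerase, at 3.79 and 3.62, and the splicing proteins Snrnp70 at 4.10 and 3.72 and Snrpd1 at 4.13 and 3.93. The 5 detected Snrpd1 guides lay between 147 and 496 normalised counts in library a and between 72.4 and 461 in library b, so none reached 500. The calls of Supt5, Snrnp70 and Snrpd1 were lost without guides at 0. Snrpe (5.05 and 5.08), Snrpb (5.28 and 4.94) and Supt6 (5.22 and 5.23) were below the non-targeting mean without being low. Snrpc, a protein of the U1 particle, kept all 10 guides, but they averaged 6.30, which the second rule called. Sp1, a general transcription factor (7.50 and 7.87), the neuronal splicing gene Snrpn (7.88 and 7.54) and Lsm12 (8.47 and 8.56) were above the non-targeting mean. The library held paralogues and unlike proteins under these prefixes, so the list is a mixed one. Thoc6, of the mRNA export complex THO, stood at 6.83 and 7.01, and Ddx26b, the Integrator paralogue now named Ints6l, at 6.25 and 6.34.

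Of 4 genes for replication and division 1 was low, Aurka (25%, against 12.2% of all genes). Gins3, a subunit of the replicative helicase, stood at 5.39 and 4.76, with detected guides at 6.34. Lrwd1, which binds ORC at replication origins, stood at 5.64 and 5.87, and Plk2, a kinase of the Polo family, at 5.53 and 4.77. For secretion 3 of 8 were low (37.5%, against 12.2% of all genes). With a pseudocount of 10 or at equal totals 0 of 8 were low (against 6.80% of all genes). Without guides at 0 it was 0 of 8 as well (against 5.09%). Sec61a1, the channel of the endoplasmic reticulum, stood at 4.70 and 4.60 with 4 guides at 0, the membrane fusion protein Snap23 at 4.74 and 4.51 with 5, and the splicing kinase Srpk1, which a prefix placed here, at 4.23 and 3.98. Snapin (4.90 and 5.10) and Snap91 (5.36 and 5.65) were not called, and neuronal Snap25 stood at 7.51 and 7.56. Vps9d1 stood at 7.57 and 7.47, and Trappc13, a subunit of a vesicle tethering complex, at 6.37 and 6.66 over 20 guides. The detected guides of Snap23 stood at 9.25, above detected controls, and those of Sec61a1 at 7.74.

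Mitochondrial genes were few. Sod1 and Sod2, the cytosolic and mitochondrial superoxide dismutases, were both low, at 3.81 and 3.17 for Sod1 and at 3.69 and 3.50 for Sod2 in libraries a and b, each with 4 guides at 0. No detected Sod2 guide exceeded 165 normalised counts in library a or 272 in library b. Sod1 had 1 guide at 2379 and 1974, and the next best at 138 and 336. Both were also called by the second rule, with detected guides at 5.82 for Sod1 and 5.99 for Sod2. Sucla2, a subunit of succinyl-CoA synthetase, was low at 4.65 and 4.50 through 5 guides at 0, while its detected guides stood at 9.15. Its call was lost with a pseudocount of 10, at equal totals, without guides at 0, and against safe-targeting guides or both control sets. Suclg2, the corresponding subunit of the GTP-linked form, stood at 7.86 and 7.69, and Surf1, needed to build respiratory complex IV, at 7.14 and 7.37.

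None of the 3 genes on the list of mitochondrial gene expression was low, against 12.2% of all genes, too few to read as a share. Ptcd1, a mitochondrial RNA processing factor, stood at 5.10 and 5.07. The tRNA methyltransferase Trmt44, whose mitochondrial role was not checked, stood at 5.99 and 6.07. Nsun4, which acts on mitochondrial ribosomal RNA, stood at 6.61 and 6.68 over 20 guides. These guides form sets of 10 under separate gene identifiers, which stood at 6.19 and 6.45 and at 7.03 and 6.91. For Trappc13, the other gene entered in this way, the sets stood at 7.41 and 7.64 and at 5.32 and 5.69. The Trappc13 sets had 2 and 4 guides at 0, and their detected guides averaged 9.41 and 9.17. The Trappc13 sets were thus farther apart than the Nsun4 sets.

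Eola1, the mitochondrial protein in the title of the series, is listed as 1110012L19Rik. It stood at 5.35 and 4.96, place 163 from the bottom of 926, and was not called low. Its detected guides averaged 8.59, close to the 8.82 of detected non-targeting guides, and 4 of its 10 guides were at 0.

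Of the glucose and lactate genes, the glucose transporter Slc2a1 stood at 5.42 and 5.44 with 4 guides at 0, and its muscle and fat relative Slc2a4 at 6.96 and 7.22. The lactate carrier Slc16a1 stood at 6.55 and 6.56. None of these 3 was called, against 12.2% of all genes low and 4.86% high, too few to read as a share. Among all 19 solute carriers and genes sharing the prefix, 3 were low (15.8%, against 12.2%). One, picked after its value was seen, was Slc7a5, the large neutral amino acid transporter, at 4.56 and 4.85, with 8 guides detected at a mean of 5.88. Slc39a14, a metal carrier, was the lowest at 4.15 and 3.84. Slc3a1, a partner of amino acid transporters in kidney, was the highest at 8.91 and 8.67.

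Neither gene of the list of growth restraints was high, against 4.86% of all genes, too few to read as a share. Stk11, the kinase LKB1, stood at 4.83 and 5.36 and its detected guides at 6.37, which the second rule called, and Nprl3, which restrains mTORC1, stood at 5.83 and 5.91. Sos1, the exchange factor that activates Ras, had the highest level of all, at 10.55 and 10.56. Its 10 guides ran from 87.9 to 10260 normalised counts in library a and from 152 to 10314 in library b. Tet2, which oxidises methylated cytosine, followed at 10.59 and 10.14, with a range of 158 to 7420 in library a and 21.2 to 6868 in library b. Abcc8, a subunit of the pancreatic potassium channel, stood at 10.32 and 10.33, Hexdc, a hexosaminidase, at 10.36 and 10.27, and the endocytic factor Fcho2 at 10.28 and 10.34. The neighbours from Fcho2 to Sos1 differed by less than the SD of Tet2 between libraries, 0.32. Pecam1, an endothelial adhesion protein, stood at 10.00 and 10.12, Inca1 at 9.84 and 9.76 and Fam168a at 9.88 and 9.70. Without guides at 0, Sos1, Tet2, Abcc8, Pecam1, Inca1 and Fam168a were no longer called high. Of the 45 high genes, 25 had no guide at 0 and 20 had 1.

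Other families are set against the 12.2% of all genes that were low and the 4.86% that were high. Of 91 genes with Rik or Gm names 14 were low (15.4%) and 10 high (11%), with a median of 6.57. With a pseudocount of 10, 9 of them were low (9.89%, against 6.80%) and 0 high (against 1.08%). Of 33 Fam genes 4 were low (12.1%), with Fam50a, a nuclear protein tied to splicing, the lowest at 3.29 and 3.11. Of 32 Ccdc genes 5 were low (15.6%) and 3 high (9.38%). Of 13 cilium genes 1 was low (7.69%) and of 14 germ cell genes 1 (7.14%). Of 6 keratin and skin barrier genes 1 was low (16.7%), and of 2 olfactory receptor genes 1. Of 5 zinc finger genes 3 were low and of 3 Tmem genes 2, too few to read as shares.

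Further low genes were picked for naming after their values had been seen. Dscc1, part of an alternative clamp loader, stood at 2.59 and 2.62, the ribosome assembly factors Wdr74 at 3.10 and 2.83 and Las1l at 3.23 and 3.25, and Ciapin1, which matures iron-sulphur proteins, at 3.37 and 3.22. The replication factors Ticrr (4.38 and 4.33) and Donson (4.38 and 4.45) were low as well, Donson with 6 guides at 0 and the other 4 at a mean of 11.04. The detected guides of Las1l had 3212, 1704 and 954 normalised counts in library a, and its other guides were at 0. Detected Ticrr guides ran from 25.1 to 5466 normalised counts in library a. Genes known for other roles were low as well. The odorant receptor Olfr229 stood at 4.52 and 3.57, the blood group enzyme Abo at 3.61 and 3.23, the brain protein Sspo at 3.48 and 4.04, and the innate immune adaptor Tirap at 2.99 and 2.88. Abo and Tirap stood below Supt5 and Snrpd1 in both libraries. Olfr229 stood above these core genes in library a and below them in library b, and Sspo the other way round. Among the 14 genes called by the second rule alone were Mreg, a regulator of melanosome transport, with 8 detected guides at 6.11, and Ier2, an early response gene, with 9 at 5.59. Idnk, a gluconate kinase, and the amino acid carrier Slc38a3 kept all 10 guides, at 6.55 and 6.60.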

How the data were processed

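Per the submitters' processing notes, the tools included Trim Galore and MAGeCK (version 0.5.9.5), with no roles stated; how guides were counted is not given in the sources used here. The guide table deposited by the authors gives, per the file headers, normalised counts of both living libraries joined in one cell, which were split by place. The authors' signal column for these cells, a single value per guide, equalled their mean for all 7571 detected guides and was 0.624 for the 2450 at 0 in both. The column of the dead libraries, 1 in number, was not used. All values under 1000 were whole multiples of the value of 1 read (100% within 0.1 read), which gave whole reads.

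Python 3.11.15 with numpy 2.4.6, pandas 2.3.3 and scipy 1.17.1 (figures: matplotlib 3.10.9) took log2(normalised count + 1), with a pseudocount of 1, averaged guides per gene (at least 5 guides) and set genes against the control guides of the same library. The calculation was tested on simulated data. Named were the 12 lowest and 8 highest genes, the 6 with most guides at 0, the 6 with the lowest detected guides (at least 5 detected), Eola1, members of the core, mitochondrial, growth and melanoma lists, and others where stated; 1 list member is not reported here. The genes and lists were chosen with earlier results of these data known. Of 929 symbols, 834 matched RefSeq names of GRCm38.p6, 89 an older symbol and 6 none.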

Additional observations from a re-analysis of the deposited data

How the results depend on the processing

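No paired analysis was possible because the libraries are of 1 group and nothing was compared between groups. The number of low genes (113) became 63 with a pseudocount of 10 and also 63 at equal totals, where values are smaller and the pseudocount weighs more. It was 198 with the median of guides (111 of them among the 113), 47 without guides at 0 (33 shared), 74 with safe-targeting guides as control, and 273 or 55 at a threshold of 1 or 3 log2 units. The number of high genes (45) became 10, 10, 11 without guides at 0, 101 with safe-targeting controls, and 157 or 6 at those thresholds. Leaving out a library gave 120 to 130 low and 49 to 51 high genes, a gene-targeting minus non-targeting level of −0.41 to −0.29, a gene-targeting minus safe-targeting level of 0.19 to 0.23, a median gene level of 6.64 to 6.66, a between-gene share of 3.74% to 3.81%, and 26.0% to 26.4% of gene-targeting guides at 0.

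The level of gene-targeting minus non-targeting guides (−0.35) was −0.26 with a pseudocount of 10, −0.26 at equal totals, −0.17 without guides at 0 and −0.070 against both control sets, and turned to 0.21 against safe-targeting guides alone. Against those (0.21) it was 0.25 and 0.080 with pseudocounts of 0.5 and 10 and 0.076 at equal totals, and turned to −0.029 with medians and −0.24 without guides at 0. The between-gene share (3.82%) was 3.93% and 3.31% with these pseudocounts, 3.29% at equal totals and 1.54% without guides at 0. The median gene level (6.67) was 6.41, 7.58, 4.19 and 8.75 in the same order, and 7.88 with medians. Guides with at most 3 reads in each library were 25.5% of the gene-targeting set. Without guides at 0, 15 of the 34 named low or high genes that could be computed kept their call, and 5 turned to above non-targeting: Rmi1 (1.56), Nol11 (0.15), Ints3 (1.38), Sucla2 (0.33) and Snap23 (0.43). Their other alternatives kept the sign, though not every call: with a pseudocount of 10 or at equal totals 30 of 37 named calls were kept, and against safe-targeting guides or both control sets 33.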
